A study of Mus musculus with 6 samples.

Results

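The fibroblast growth factor (FGF) genes of the esophageal lining were measured by RNA sequencing in mouse embryos at stage E12.5. The set was chosen by gene symbol: 22 genes named Fgf with a number, and 15 genes for FGF receptors, binding proteins, feedback inhibitors and target transcription factors. All 37 had a row in the count table, which holds 23284 gene symbols. The compared groups were 3 libraries of p63KO epithelium, homozygous for the Trp63-CreERT2 allele, and 3 libraries of epithelium from littermate controls, titled WT. The allele inserts CreERT2 into Trp63, the gene of a transcription factor of stratified epithelia, and is not limited to the esophagus. The labels do not say how many embryos made up a library, and the p-values cover only the variation between the 6 libraries.

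FGFs are secreted proteins that bind receptor tyrosine kinases (Fgfr1 to Fgfr4) together with heparan sulfate on the cell surface. An active receptor signals through adaptors, Ras and the ERK kinases, and ERK activity induces the ETS transcription factors Etv4 and Etv5 and inhibitors that damp the same route (Sprouty, Spred and Dusp6 proteins). In the mouse foregut, Fgf10 and Fgf7 are made mainly by mesenchyme and act on the IIIb splice form of Fgfr2 in the epithelium. The counts here are per gene, so the IIIb and IIIc forms of a receptor cannot be told apart.

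The libraries had total counts of 13335328 to 16506401 in p63KO and 16948971 to 20093838 in control. Values are given in CPM (counts scaled to library size, with TMM factors), and 3 counts corresponded to 0.177 to 0.223 CPM in p63KO libraries and 0.153 to 0.177 CPM in control libraries. Trp63 was 76.7, 62.2 and 75.4 CPM in p63KO against 584, 674 and 551 CPM in control (log2 fold change -3.08, SE 0.11), so every library matched its label. Control replicate 3 stood apart: 58 genes, Fgfr4 among them, exceeded 5 CPM there and also exceeded 4 times the sum of 1 CPM and the highest value elsewhere. The same rule found 2 genes in control replicate 1 and 0 in the remaining libraries. The p63KO replicate 2 library had 1.59 CPM of Xist, the RNA of the inactive X chromosome, against 514 to 1460 CPM in the other libraries. The 8 markers of foregut epithelium summed to 4625 to 4711 CPM in p63KO and 4087 to 4334 CPM in control. In the test, 5 of them were higher in p63KO and 1, Cdh1, was lower. Muscle markers summed to 28.2 to 50.5 CPM in p63KO and 72.5 to 163 CPM in control, and enteric neural crest markers to 37.8 to 50.5 CPM in p63KO and 15.4 to 24.1 CPM in control, where Elavl4 was the 1 of 6 that passed the test (higher in p63KO). Endothelial markers (3.88 to 7.65 CPM in p63KO, 4.14 to 7.3 CPM in control) and blood markers (10.9 to 24.4 CPM in p63KO, 2.69 to 38.7 CPM in control) overlapped, with Hba-a1 at 0 in every library.

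RNA of 3 FGF receptor genes fell, while the kinase-less receptor gene Fgfrl1, a binding protein gene and several ligand genes rose. Of the 37 genes, 25 had enough counts to test, and 7 of these were higher and 5 lower in p63KO (edgeR quasi-likelihood test, adjusted p under 0.05 over all genes). Those that rose were Fgf3, Fgf7, Fgf14, Fgf17, Fgf18, Fgfrl1 and Fgfbp1, and those that fell were Fgfr1, Fgfr2, Fgfr3, Spry1 and Spred2. This is 48.0% of the tested genes, against 29.6% of all 13849 genes tested (15.3% higher and 14.3% lower). Of the genes that rose, Fgf3, Fgf7, Fgf17 and Fgf18 passed the count filter through their p63KO libraries, since fewer than 3 control libraries reached the limit of 0.598 CPM. Without these 4 genes, 3 of 21 tested genes rose and 5 fell, which is 38.1%. The median log2 fold change of the 25 genes was -0.12, against -0.01 over all tested genes. The groups did not overlap for 13 of the 25 genes, all 12 changed genes and Fgf9, against 44.1% of all tested genes. Without control replicate 3, 7 genes rose and 5 fell, with Fgfr4 called higher and Fgf17 no longer called, against 26.9% of all genes tested in that fit.

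**Figure D1:**
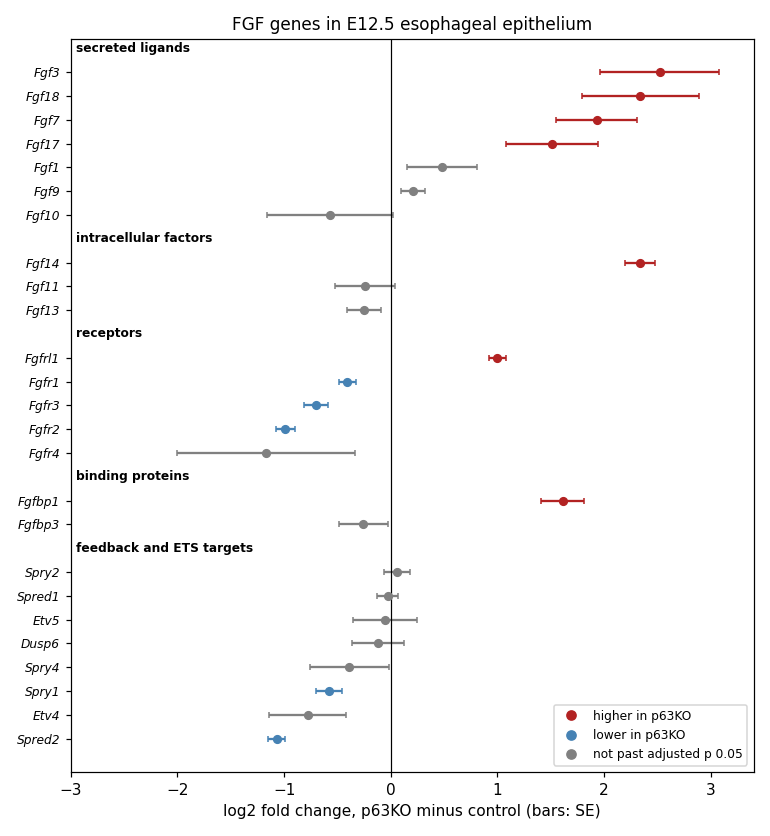
Log2 fold change (p63KO minus control) of the 25 tested FGF genes, with SE as bars, grouped by role and sorted within each group. Fgfr1, Fgfr2 and Fgfr3 lie left of 0 and Fgfrl1 lies right of it, at 1.0.

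The 250 bases before the RefSeq transcription start (build GRCm38.p6) of the 3 genes with the lowest p in each direction are shown, since these are the genes whose level differed most clearly. They are Spred2, Fgfr2 and Fgfr3, which fell, and Fgf14, Fgfrl1 and Fgfbp1, which rose. Capitals mark CATG, which reads the same on both strands and forms the core of many p53-family binding sites. Of the 6, Fgfr3 has 2 starts in the table, of which the first is shown.
Spred2 (chr11:19924192-19924441, plus strand): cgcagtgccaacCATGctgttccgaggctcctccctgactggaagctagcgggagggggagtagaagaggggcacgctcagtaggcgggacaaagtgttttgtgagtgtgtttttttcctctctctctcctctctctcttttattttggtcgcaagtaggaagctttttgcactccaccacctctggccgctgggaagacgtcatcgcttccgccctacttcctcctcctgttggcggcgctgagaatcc
Fgfr2 (chr7:130266809-130267058, minus strand): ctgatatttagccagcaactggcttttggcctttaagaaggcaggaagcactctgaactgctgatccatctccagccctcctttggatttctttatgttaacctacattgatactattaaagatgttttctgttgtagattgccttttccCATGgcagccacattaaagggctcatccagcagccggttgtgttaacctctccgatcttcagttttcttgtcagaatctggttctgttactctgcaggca
Fgfr3 (chr5:33721474-33721723, plus strand): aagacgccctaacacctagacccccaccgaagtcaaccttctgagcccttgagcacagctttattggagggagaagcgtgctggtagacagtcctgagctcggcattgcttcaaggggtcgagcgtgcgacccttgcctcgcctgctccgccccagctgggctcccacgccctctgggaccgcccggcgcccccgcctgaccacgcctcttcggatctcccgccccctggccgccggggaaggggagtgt
Fgf14 (chr14:124192547-124192796, minus strand): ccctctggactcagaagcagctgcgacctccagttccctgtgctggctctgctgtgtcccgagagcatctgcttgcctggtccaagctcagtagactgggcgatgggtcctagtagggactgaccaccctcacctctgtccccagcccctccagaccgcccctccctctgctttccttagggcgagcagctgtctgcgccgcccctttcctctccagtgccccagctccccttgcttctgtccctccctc
Fgfrl1 (chr5:108693979-108694228, plus strand): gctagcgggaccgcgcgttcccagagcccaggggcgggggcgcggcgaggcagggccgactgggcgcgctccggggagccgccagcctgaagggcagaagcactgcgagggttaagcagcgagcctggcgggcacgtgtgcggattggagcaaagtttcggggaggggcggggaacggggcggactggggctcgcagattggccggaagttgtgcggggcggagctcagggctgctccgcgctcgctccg
Fgfbp1 (chr5:43981800-43982049, minus strand): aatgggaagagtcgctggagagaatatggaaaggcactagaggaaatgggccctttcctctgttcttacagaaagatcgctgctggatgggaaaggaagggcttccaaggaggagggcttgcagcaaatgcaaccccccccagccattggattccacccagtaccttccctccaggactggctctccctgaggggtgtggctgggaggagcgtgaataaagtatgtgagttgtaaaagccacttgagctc
CATG stood once in the Spred2 stretch, with its first base at position -238 from the start, and once in the Fgfr2 stretch, at position -100. The other 4 stretches held no CATG. Of 36 starts listed for 28 of the 37 genes, 14 had CATG (38.9%), against 53.9% of 32851 promoters of the same length. The 10-base p53-family half-site, which contains CATG in some of its forms, matched 0 of the 36 starts and 7.1% of all promoters. The GC box GGGCGG, read on both strands, matched 22 of the 36 and 32.7% of all promoters, while the ETS motif GGAAGT, read on both strands, matched 5 of the 36 and 19.7% of all promoters. These stretches had a median GC content of 62.4%, against 52.4% over all promoters, and Fgfr2 had the lowest of the 6 shown at 44.0%. A match is a description of these letters and not a binding site.

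Of the 4 kinase receptor genes, 3 fell and Fgfr4 did not pass the test. Fgfr2, the main epithelial receptor for Fgf7 and Fgf10, was 349, 325 and 388 CPM in p63KO against 696, 769 and 651 CPM in control. Every p63KO library lay below every control library, and the p63KO mean was 50.2% of the control mean (log2 fold change -0.99, SE 0.09, edgeR adjusted p = 3.1e-05). Fgfr3, a receptor best known for its part in skeletal growth, was 150, 177 and 138 CPM in p63KO against 272, 269 and 214 CPM in control, again without overlap (-0.70, SE 0.11, edgeR adjusted p = 0.0015). Of the 4 cartilage markers, which summed to 365 to 495 CPM in p63KO and 795 to 1166 CPM in control, nearly all of the sum was Col2a1 (mean 426 CPM in p63KO and 984 CPM in control). Col9a1 was called higher in p63KO (1.31, edgeR adjusted p = 0.016), and Acan and Matn1 had too few reads to test. Their part in the Fgfr3 result was not tested. Fgfr1 was 87.0, 89.7 and 77.2 CPM in p63KO against 122, 110 and 106 CPM in control. Its change was the smallest of the 3 (-0.41, SE 0.08, edgeR adjusted p = 0.0046). Each of these 3 calls was kept with any 1 library left out, over log2 fold changes of -1.07 to -0.91 for Fgfr2, -0.80 to -0.62 for Fgfr3 and -0.45 to -0.35 for Fgfr1.

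Fgfr4, a receptor of endodermal organs such as liver, turned on 1 library. It was 4.31, 4.57 and 2.97 CPM in p63KO against 2.20, 1.89 and 22.8 CPM in control, the last in control replicate 3. The groups overlapped, and the log2 fold change of -1.17 had an SE of 0.83 (edgeR adjusted p = 0.34). Without control replicate 3, Fgfr4 was higher in p63KO by 0.95 on the log2 scale (edgeR adjusted p = 0.042). A cause of the high value in that library was not tested.

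Fgfrl1 encodes a receptor that binds FGFs but lacks the tyrosine kinase domain. It was 88.3, 91.4 and 93.6 CPM in p63KO against 40.7, 47.5 and 48.7 CPM in control. The libraries of each group lay close together and the groups did not overlap (log2 fold change 1.0, SE 0.08, edgeR adjusted p = 1.7e-05). CPM was also divided by exonic length, all GENCODE M21 exons of a gene joined (10328 bases for Fgfr2 and 2782 for Fgfrl1). The gene models behind the counts are not given, so ratios and shares between genes depend on these lengths. Per kilobase, Fgfrl1 stood at 32.7 ± 0.96 CPM per kb in p63KO and 16.4 ± 1.57 CPM per kb in control (SD, n = 3 each). On the same scale, Fgfr2 stood at 34.3 ± 3.09 CPM per kb in p63KO and 68.3 ± 5.78 CPM per kb in control. The ratio of Fgfr2 to Fgfrl1 per length was 0.957 to 1.12 in p63KO libraries and 3.6 to 4.62 in control libraries. That these ranges do not overlap follows from the fall of Fgfr2 and the rise of Fgfrl1 and is no further result.

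The 4 kinase receptors together summed to 65.6 ± 0.95 CPM per kb in p63KO and 117 ± 7.02 CPM per kb in control. Fgfr2 was the most abundant per length in every library, followed by Fgfr3, Fgfr1 and Fgfr4. Its share of the summed level was 47.2% to 57.4% in p63KO and 57.0% to 60.2% in control, so the ranges overlapped. The share of Fgfr3 was 29.4% to 37.2% in p63KO and 27.2% to 32.1% in control, also with overlap. Fgfr1 held 11.9% to 13.6% in p63KO and 8.97% to 10.4% in control, without overlap. With 3 libraries against 3, the smallest p of a two-sided exact permutation test is 0.1, so these shares were not tested.

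**Figure D2:**
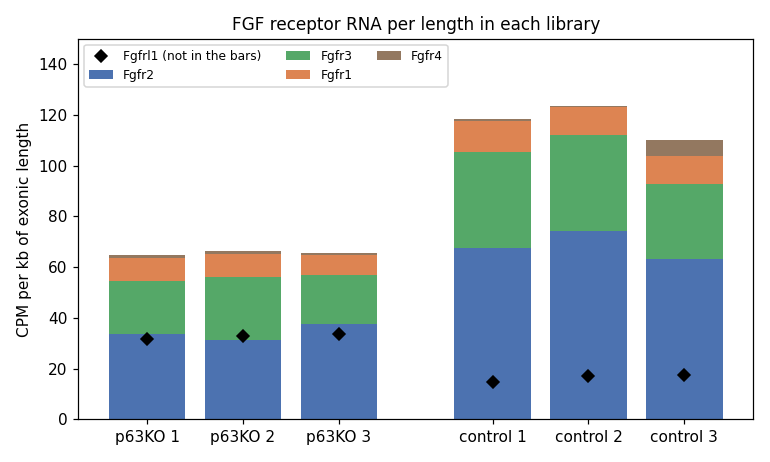
CPM per kb of exonic length of the 4 kinase receptor genes in each library, stacked, with Fgfrl1 as diamonds on the same axis. The stacks reach 64.7 to 66.6 in p63KO and 110 to 124 in control, and in p63KO the diamonds lie near the top of the Fgfr2 segment.

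Of the 18 secreted ligand genes, Fgf3, Fgf7, Fgf17 and Fgf18 rose. These 4 could be tested only through their p63KO libraries. The filter left out other ligand genes, some with more reads in control (Fgf16 and Fgf22) and some with more in p63KO (Fgf5, Fgf20 and Fgf21). The number that rose therefore says nothing of a direction for the group. All 4 were at low levels, with Fgf7 at 0.901 CPM per kb in p63KO and 0.236 CPM per kb in control. Fgf7, or keratinocyte growth factor, was 3.48, 2.77 and 2.52 CPM in p63KO against 1.13, 0.409 and 0.765 CPM in control (log2 fold change 1.93, SE 0.38, edgeR adjusted p = 0.0042). The lowest p63KO library stood above the highest control library.

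Fgf3, a ligand of the same subfamily known from inner ear development, was 0.826, 0.762 and 1.04 CPM in p63KO against 0.215, 0.051 and 0.177 CPM in control (2.52, SE 0.56, edgeR adjusted p = 0.0080). These are 14, 11 and 14 reads in p63KO against 4, 1 and 3 in control. Fgf18 and Fgf17 belong to the Fgf8 subfamily, whose members prefer the IIIc receptor forms. Fgf18 had 14, 11 and 17 reads in p63KO against 4, 5 and 1 in control (2.34, SE 0.55, edgeR adjusted p = 0.011). Fgf17 had 22, 18 and 18 reads in p63KO against 13, 8 and 4 in control (1.51, SE 0.43, edgeR adjusted p = 0.027). The groups did not overlap in CPM for any of these 3 genes, but the calls of the last 2 were fragile. The Fgf18 call was lost without p63KO replicate 3 (edgeR adjusted p = 0.051). The Fgf17 call was lost without p63KO replicate 1, 2 or 3 (0.076, 0.059 and 0.077), without control replicate 2 or 3 (0.081 and 0.074) and with DESeq2 (0.067).

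The 2 most abundant ligand genes per length, Fgf9 and Fgf1, did not pass the test. Fgf9, a ligand made by foregut epithelium and mesothelium, was 21.1, 22.7 and 23.1 CPM in p63KO against 19, 17.8 and 21 CPM in control. The p63KO libraries were all above the control libraries by a small step (0.21, 95% interval -0.03 to 0.45, edgeR adjusted p = 0.18). Fgf1, which binds all FGF receptors, was 24.0, 11.5 and 18 CPM in p63KO against 18.3, 7.61 and 12.7 CPM in control, with wide overlap (0.48, 95% interval -0.26 to 1.22). Fgf10 had 11, 10 and 1 reads in p63KO against 15, 15 and 10 in control (-0.57, 95% interval -1.90 to 0.76).

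Markers of mesenchyme, the usual source of Fgf7 and Fgf10, were detected in both groups. The 12 listed markers summed to 1259 to 1655 CPM in p63KO and 455 to 541 CPM in control, with none at 0. Dcn alone was 1053 to 1342 CPM in p63KO and 114 to 211 CPM in control. The other 11 markers, a grouping made after Dcn was seen, summed to 143 to 312 CPM in p63KO and 244 to 394 CPM in control. In the test, 6 of the 12 fell, among them Col1a1, Col3a1 and Pdgfra, and 2 rose, Dcn and Twist1. The markers' part in the Fgf7 result was not tested. In RNA pooled from the many cells of an epithelial sample, a change in the number of cells of a type and a change in RNA per cell cannot be told apart.

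**Figure D3:**
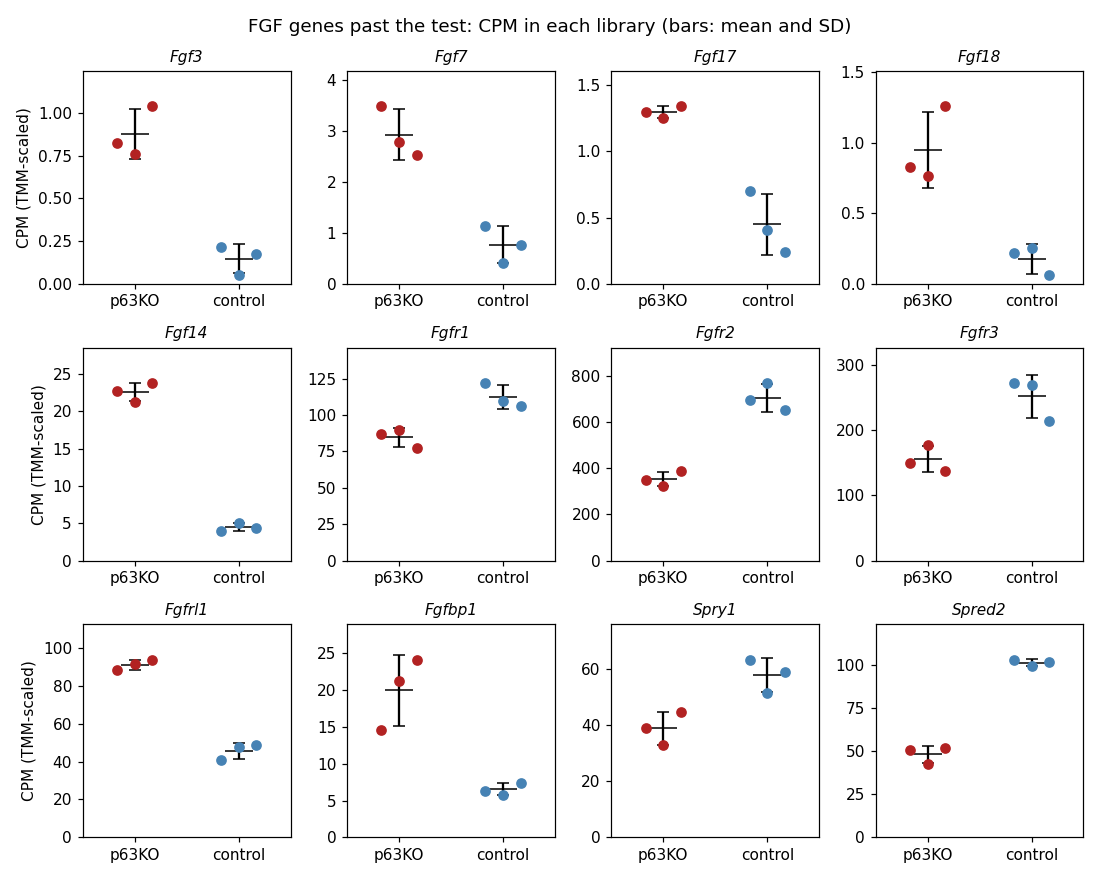
TMM-scaled CPM in each library of the 12 FGF genes past adjusted p 0.05, with p63KO left of control in every panel and the mean and SD in black. No panel shows an overlap between groups, and the vertical scales differ, with tops near 1 CPM for Fgf3 and 769 CPM for Fgfr2.

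The other 11 ligand genes had too few reads to test. Fgf4, Fgf6 and Fgf15 had 0 reads in all 6 libraries, which allows up to 0.223 CPM in p63KO and 0.177 CPM in control at 3 counts a library (counting error only). In the mouse, Fgf15 is a gut hormone that restrains bile acid synthesis in the liver. Fgf20 had 5 reads in p63KO and 0 in control, Fgf8 had 0 in p63KO and 1 in control, and Fgf23 had 1 in each group. Fgf2 had 4 reads in p63KO and 5 in control, and it shares 9.44% of its exonic length with the oppositely oriented gene Nudt6.

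Among the remaining 4 ligand genes, the groups did not overlap in CPM, all at low read numbers. The same held for Fgf20 above and for 44.1% of all tested genes. Fgf21, a metabolic hormone, had 10, 4 and 10 reads in p63KO against 3, 3 and 0 in control. Fgf5, known for the control of hair length, had 5, 2 and 4 reads in p63KO against 1, 0 and 2 in control. Fgf22 had 1, 1 and 0 reads in p63KO against 9, 7 and 3 in control, and Fgf16 had 0, 0 and 1 in p63KO against 14, 2 and 2 in control. When all 18572 genes with a read were tested, of which 22.0% were called, none of these 4 passed (edgeR adjusted p = 0.080 for Fgf21, 0.20 for Fgf5, 0.064 for Fgf22 and 0.094 for Fgf16).

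Fgf11 to Fgf14 encode intracellular proteins that do not bind receptors and that regulate voltage-gated sodium channels. Fgf14 was 22.7, 21.3 and 23.8 CPM in p63KO against 3.92, 5.01 and 4.42 CPM in control. The groups lay far apart (log2 fold change 2.34, SE 0.14, edgeR adjusted p = 3.3e-06), and the call was kept with any 1 library left out, over 2.26 to 2.44. Beside this, the 6 neuroendocrine markers all rose and summed to 392 to 485 CPM in p63KO and 2.5 to 6.77 CPM in control. Their part in the Fgf14 result was not tested.

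The other intracellular genes did not change past the test. Fgf13, the most abundant of the 4 per length, was 51.4, 35.1 and 38.6 CPM in p63KO against 55.4, 53.2 and 40.9 CPM in control, with the 2 lowest values in p63KO (-0.25, 95% interval -0.61 to 0.10). Fgf11 was 1.63 to 2.54 CPM in p63KO and 2.06 to 3.01 CPM in control (-0.24, 95% interval -0.87 to 0.40). Fgf12 was left out by the filter, with 19, 1 and 15 reads in p63KO against 2, 1 and 0 in control. It was called higher when all genes with a read were tested (edgeR adjusted p = 0.026), although p63KO replicate 2 lay within the control range.

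Binding proteins of the Fgfbp family carry FGFs away from heparan sulfate in the matrix. Fgfbp1 was 14.6, 21.2 and 24.1 CPM in p63KO against 6.34, 5.82 and 7.42 CPM in control. All p63KO libraries were higher, with p63KO replicate 1 the lowest of them (log2 fold change 1.61, SE 0.20, edgeR adjusted p = 0.00029). Fgfbp3 was 3.12 to 4.72 CPM in p63KO and 3.98 to 5.18 CPM in control, with overlap (-0.26, 95% interval -0.78 to 0.26).

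Of 6 feedback inhibitor genes, 2 fell and 4 did not pass the test, a share of 33.3% that is close to the 29.6% of all tested genes. Spred2, a membrane protein that blocks Ras signalling, was 50.6, 42.6 and 51.8 CPM in p63KO against 103, 99.2 and 102 CPM in control. The p63KO mean was 47.7% of the control mean, without overlap (log2 fold change -1.07, SE 0.08, edgeR adjusted p = 1.3e-05). Spry1, a Sprouty inhibitor of receptor tyrosine kinase signalling, was 39.1, 32.8 and 44.5 CPM in p63KO against 63.2, 51.5 and 58.9 CPM in control (-0.58, SE 0.12, edgeR adjusted p = 0.0055). Both calls were kept with any 1 library left out.

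The other 4 did not pass the test, and of these Spred1 and Spry2 had group means close to each other. Spred1 was 163 ± 21.2 CPM in p63KO and 166 ± 16.8 CPM in control (SD, n = 3 each; -0.03, 95% interval -0.27 to 0.20). Spry2 was 53.5 ± 7.64 CPM in p63KO and 51.3 ± 6.87 CPM in control (SD, n = 3 each; 0.06, 95% interval -0.22 to 0.34). Spry4 had 15 to 27 reads in p63KO and 24 to 42 in control (-0.39, 95% interval -1.22 to 0.44). Dusp6, the phosphatase that inactivates ERK, was 98.7, 66.3 and 106 CPM in p63KO against 123, 61.9 and 109 CPM in control (-0.12, 95% interval -0.67 to 0.44). With 1 library left out, the log2 fold changes of Spred1, Spry2 and Dusp6 moved to either side of 0.

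The ETS target genes did not pass the test. Etv5 was 48.4, 27.9 and 63.5 CPM in p63KO against 52.4, 31.1 and 61.1 CPM in control, with nearly the same range in both groups (-0.05, 95% interval -0.72 to 0.63). Etv4 was 17.6, 9.35 and 16.0 CPM in p63KO against 24.1, 12.9 and 37.2 CPM in control (-0.78, 95% interval -1.59 to 0.02, edgeR adjusted p = 0.14). With 1 library left out in turn, Etv4 was called lower in p63KO only without control replicate 2 (-1.10, edgeR adjusted p = 0.015). Without control replicate 3, its highest library, the change was -0.37 (edgeR adjusted p = 0.41).

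Library spread was wide in both groups for Etv4, Etv5, Dusp6 and Spry4. The coefficient of variation of Etv5 was 38.3% in p63KO and 32.0% in control, and that of Dusp6 was 23.4% in p63KO and 32.8% in control. The common biological coefficient of variation over all tested genes was 12.7%. Replicate 2 was the lowest library of both p63KO and control for 7 of the 8 feedback and ETS genes, Spred1 being the exception, and also for Fgf1 and Fgf3. The same held for 16.7% of all tested genes. The labels do not say that a replicate number marks a shared litter or day.

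**Figure D4:**
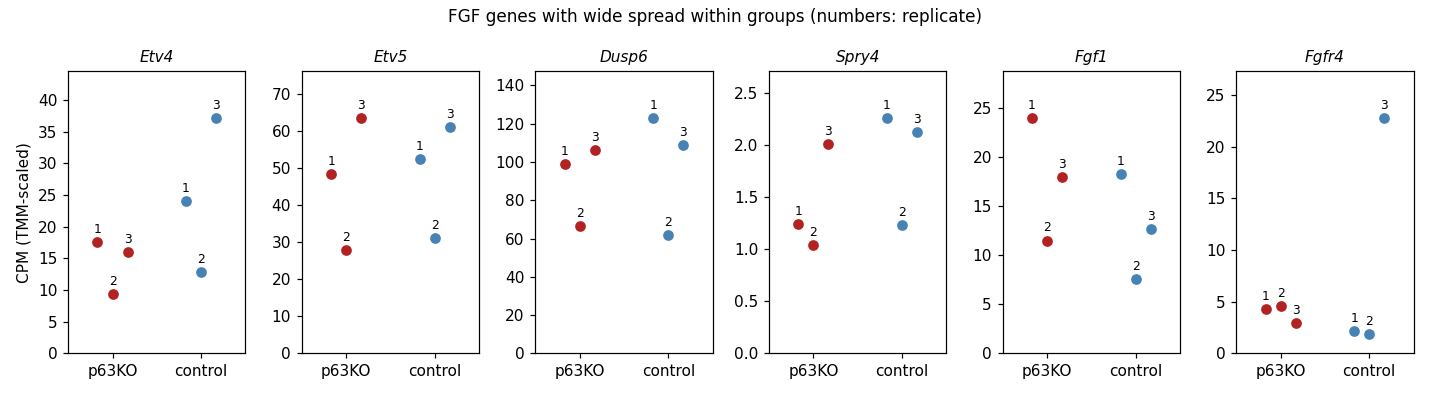
TMM-scaled CPM of Etv4, Etv5, Dusp6, Spry4, Fgf1 and Fgfr4 in each library, numbered by replicate, p63KO left of control. Replicate 2 is the lowest point of both groups in the first 5 panels, and Fgfr4 reaches 22.8 CPM in control replicate 3 alone.

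A wider list held 59 other genes of FGF signalling, of which 58 had a row and 54 could be tested. Of these, 10 rose and 13 fell (42.6%), with a median log2 fold change of -0.08, against 29.6% and -0.01 over all tested genes. Genes rose and fell within most of its groups, while all 5 changed heparan sulfate genes fell.

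Of 10 genes for enzymes that build or trim heparan sulfate, 5 fell and none rose. Over all tested genes, 14.3% were lower and 15.3% higher in p63KO. Whether these 10 genes differ in direction from all tested genes was not tested. Sulf1, an extracellular enzyme that removes sulfate from the chains, was 31.0 ± 6.88 CPM in p63KO and 119 ± 23.8 CPM in control (SD, n = 3 each; log2 fold change -1.95, SE 0.17, edgeR adjusted p = 3.6e-05). Ext1, which lengthens the chains, fell by 0.62 on the log2 scale, Hs6st1, which adds sulfate, by 0.49 and Ndst1, also a sulfate-adding enzyme, by 0.30. The remaining call of the 5 was lost without p63KO replicate 2 or 3, or control replicate 1 or 3, left out in turn.

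Feedback genes outside the main set also divided. Dusp7, an ERK phosphatase related to Dusp6, was 25.7 ± 1.46 CPM in p63KO and 92.0 ± 6.47 CPM in control (SD, n = 3 each; -1.84, SE 0.08, edgeR adjusted p = 5.0e-07). Lrig3 fell by 1.23 on the log2 scale. Spred3, the third Spred gene, rose to 47.3 ± 4.03 CPM in p63KO, against 21.4 ± 3.77 CPM in control (SD, n = 3 each; 1.15, SE 0.13). Dusp4, a nuclear phosphatase of ERK, rose by 1.10 and Il17rd, a membrane inhibitor of FGF signalling, by 0.59.

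Among 8 tested ERK response genes, 3 rose and 1 fell. Etv1, an ETS factor related to Etv4 and Etv5, was 8.44 ± 1.54 CPM in p63KO and 1.64 ± 0.42 CPM in control (SD, n = 3 each; 2.36, SE 0.26, edgeR adjusted p = 0.00014). Ccnd1, the cyclin D gene of cell cycle entry, rose by 1.06 and Phlda1 by 1.15, the last call being lost without p63KO replicate 1 or 3 (edgeR adjusted p = 0.060 and 0.052). The proliferation factor gene Myc fell by 1.32.

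Of 3 co-receptor genes tested, 1 rose and 1 fell (66.7%). Of 12 adaptor and enzyme genes 1 rose and 2 fell (25.0%), and of 13 Ras to ERK genes 2 rose and 2 fell (30.8%). The last 2 shares are close to the 29.6% of all tested genes. Hras, listed as Hras1, was 59.9 ± 2.66 CPM in p63KO and 114 ± 12.1 CPM in control (SD, n = 3 each; -0.93, SE 0.09, edgeR adjusted p = 4.1e-05). Gab1, a docking protein, fell by 0.62 and Flrt3, which encodes a membrane partner of FGF receptors, by 0.76. Its relative Flrt2 rose by 0.66, the ERK gene Mapk3 by 0.47, the MEK gene Map2k1 by 0.37 and the adaptor gene Shc1 by 0.25. Shc1 missed the threshold when control replicate 1 was left out (edgeR adjusted p = 0.053). The 3 remaining genes that fell had the highest p of the 13 and are not described singly; each lost its call without 4 or 5 of the 6 libraries, left out in turn.

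**Figure D5:**
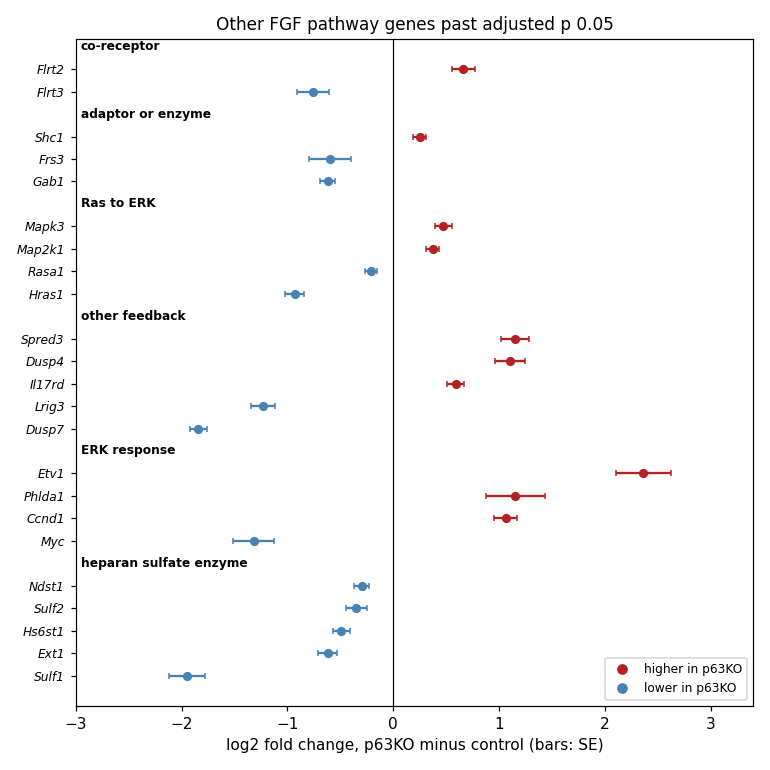
Log2 fold change (p63KO minus control), with SE as bars, of the 23 genes of the wider list that passed adjusted p 0.05, grouped by role. All 5 heparan sulfate genes lie left of 0, with Sulf1 at -1.95, while each other group holds genes on both sides.

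How strand was handled in counting is unknown from the labels, so reads of overlapping genes cannot be assigned with certainty. In GENCODE M21, Fgfr2 shares 3.04% of its exonic length with Ctbp2, Fgfr3 13.9% with the oppositely oriented G630022F23Rik, Spry1 24.4% with Gm42922, Fgf14 5.26% with Gm28932 and Fgfr1 1.66% with Gm16159. Of these partners, Ctbp2 has a row in the count table.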

How the data were processed

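RNA of esophageal epithelium was purified with the PicoPure kit and sequenced from TruSeq libraries, per the labels' protocols. The authors deposited raw counts per gene symbol, with no normalization. The submitters' processing notes name bcl2fastq 1.8.4, TopHat2 2.1.0, DESeq2 and the mouse build mm9, with the counting tool, gene models and strandedness not given in the sources used here. Columns were tied to samples by the names in the sample descriptions.

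The low-count filter filterByExpr (edgeR 4.0.16 in R 4.3.3, with a minimum count of 10 and a total of at least 15) left 13849 of 18572 genes with a read. After TMM scaling, a quasi-likelihood model holding a group term alone gave each gene's difference between p63KO and control, with Benjamini-Hochberg adjustment over all tested genes and a threshold of 0.05. The SE is the log2 fold change divided by the square root of F, and intervals are at 95%. The script was tested on simulated data. Replicates of a group differed beyond sampling noise (chi-square per degree of freedom 7.53 to 15.3).

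Every FGF gene was named, and from the wider list those past the threshold, at most the 10 lowest p in each direction. All lists were chosen with earlier results of these data known. The wider list's Hras and the marker Foxf1 were matched to the older symbols Hras1 and Foxf1a, and Fgfbp2 had no matching row. Exonic lengths and overlaps come from GENCODE M21 (GRCm38) and promoters from RefSeq, neither being the build of the counts, so no coordinates of the 2 builds were combined. Alternatives were DESeq2 1.42.0, limma-voom (limma 3.58.1), 2 scalings, 2 filters, a replicate block, a threshold of 0.01 and each library left out.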

Additional observations from a re-analysis of the deposited data

How the results depend on the processing

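Under the alternatives other than leaving out a library, 5 to 8 FGF genes rose and 5 or 6 fell, and 8 to 10 genes of the wider list rose and 9 to 15 fell, with 4002 to 4778 genes changed in all at the 0.05 threshold and 2580 at 0.01. With 1 library left out, 5 to 7 FGF genes rose and 5 or 6 fell, 9 to 11 of the wider list rose and 10 to 13 fell, Trp63 ranged from -3.14 to -2.96, and 3150 to 3771 genes changed in all, against 4098 with all libraries. Of 322 fits of single FGF genes, 301 kept both direction and side of the threshold. With 1 library left out, log2 fold changes ranged from -1.65 to 0.95 for Fgfr4, -0.05 to 0.18 for Spry2, -0.14 to 0.04 for Spred1, -0.36 to 0.09 for Dusp6 and -0.33 to 0.24 for Etv5, each crossing 0. The cause was not tested.

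Same-numbered libraries of the 2 groups were not shown to be paired. Their deviations from the group means correlated at 0.173, 0.264 and 0.0346, against -0.229 to 0.0563 for libraries of unlike number. Each p63KO library correlated best with the control library of its own number, but control replicate 3 correlated best with p63KO replicate 1 (0.0563). With the replicate block, 8 FGF genes rose and 6 fell, 10 genes of the wider list rose and 15 fell, 4778 genes changed in all and Trp63 was at -3.08. The FGF genes added were Fgf1 (0.49, edgeR adjusted p = 0.011) and Etv4 (-0.72, edgeR adjusted p = 0.015). Ligand genes with fewer than about 10 reads a library are limited by depth.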
